A study of Mus musculus with 2 samples.

Results

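The keratins of the epidermis between the hair follicles were examined on 2 bead arrays of mouse skin keratinocytes. The genes were the basal keratins Krt5, Krt14 and Krt15 and the suprabasal keratins Krt1, Krt10, Krt2 and Krt77, taken by gene symbol. These 7 of 17871 genes were read by 7 of 25697 probes, 1 probe per gene. Only 2 of the 7, Krt10 and Krt15, carry their current symbol in the deposited annotation. The other 5 were found under the older names Krt2-5 (Krt5), Krt1-14 (Krt14), Krt2-1 (Krt1), Krt2-17 (Krt2) and 4732484G22Rik (Krt77), through Entrez numbers or RefSeq accessions.

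The array labelled KO held RNA of mice with VDR fl/fl alleles, floxed for the vitamin D receptor, and K14 driven Cre. The array labelled CON held RNA of VDR fl/fl littermates without the Cre label. All animals were 3 months old and on a low calcium diet, and each array pooled keratinocytes from the skin of 3 mice. The recombinase is driven by the promoter of Krt14, itself one of the keratins measured, so it acts in Krt14-expressing cells and in cells derived from them. With 1 array per group there was no replicate check, no test was possible, and every difference below describes this pair of arrays. Vdr itself was not lower on the array labelled KO (2667 against 2468 at its brightest probe, a log2 difference of 0.17, with 0.23 and 0.77 at the other probes), and the position of its probes relative to the deleted part is not known here, so the direction of every difference rests on the label.

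Keratins form filaments only as pairs of a type I and a type II chain. Dividing cells of the basal layer make Krt5 (type II) with Krt14 (type I), and Krt15 is a further type I keratin of basal cells that is also a marker of the hair follicle bulge. On leaving the basal layer, cells switch to Krt1 (type II) and Krt10 (type I). Krt2 and Krt77 are further type II keratins of suprabasal cells, and in mice Krt2 is most abundant in ear, footpad and tail skin.

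None of the 7 keratins differed by 2-fold between the arrays. Krt15 and Krt5 were lower on the array labelled KO, their basal companion Krt14 was nearly level, Krt1 was slightly higher, and the sign for Krt10 depended on the scaling. Krt15 was 1.29-fold lower and Krt5 1.21-fold lower, against 1.02-fold lower for Krt14. In RNA of whole cell preparations, fewer cells of a type and less RNA per cell cannot be told apart. For comparison, 1.28% of the 9536 detected genes were at least 2-fold higher and 1.11% at least 2-fold lower on the array labelled KO.

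**Figure D1:**
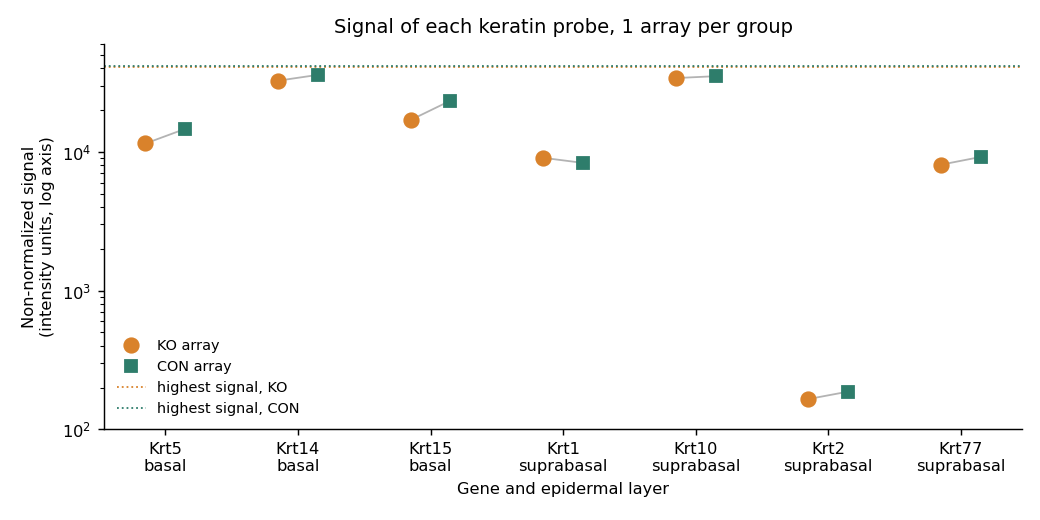
Non-normalized signal (log axis) of the probe of each keratin on the array labelled KO (circles) and the array labelled CON (squares), with the highest signal on each array as a dotted line. Krt14 and Krt10 lie close under the dotted lines, Krt2 lies at 165.2 and 186.9, and no error bars are drawn because each group has 1 array.

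Among the basal keratins, Krt15 showed the widest gap. Its signal was 16981 on the array labelled KO, against 23412 on the array labelled CON. The log2 difference was -0.37 after background correction and quantile normalization, and -0.36 in the authors' normalized values (17223 against 22042). Its position among all probes, counted from the brightest, was 101 on the array labelled KO and 60 on the array labelled CON. It had the lowest difference of the 100 brightest probes, followed by the calcium-binding protein gene S100a11 at -0.29, and was the third lowest of the 200 brightest, after Slc38a2 (-0.49) and Mtch1 (-0.40). These comparison genes were picked after their values were seen.

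Krt5, the type II keratin of the basal layer, had a signal of 11499.8 on the array labelled KO and 14666.5 on the array labelled CON. Its log2 difference was -0.28, and -0.25 in the authors' normalized values. Of the 200 brightest probes, 9, with Krt5 itself included, had a difference as low as or lower than that of Krt5. Krt14 had a signal of 32614 on the array labelled KO, against 35929.6 on the array labelled CON, and a log2 difference of -0.03. The basal partners therefore stood 0.25 apart on the log2 scale, with Krt5 the lower, whereas Krt5 and Krt15 stood 0.09 apart. Between the signals as measured, Krt14 differed by -0.14 and Krt5 by -0.35. Krt14 lay much nearer the top of the intensity scale than Krt5, as given below. Whether differences at these 2 positions can be compared was not tested.

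The vitamin D receptor binds DNA at half-sites such as AGGTCA, so the RefSeq promoter windows (250 bases before to 50 after each start, assembly GRCm38.p6) were searched for these letters on either strand. Of the 7 genes, 5 had a window in the table and 1 of these, Krt5, held a match, against 16.3% of 32851 windows of all genes. The match is shown with its neighbouring bases because it was the only one in the windows of these genes. The whole stretch shown lies at chr15:101712857-101712880 on the minus strand. The match starts 35 bases after the transcription start, and reads as the reverse complement of the half-site, in capitals:

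Krt5: gaacgccgcTGACCTcgccagcac

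No member window held a pair of half-sites 3 bases apart on the same strand, an arrangement found in 2 windows of the whole table. A match of these letters is a description of the sequence and says nothing of binding.

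Among the suprabasal keratins, the differences went both ways, and those of the bright probes were within 0.16 on the log2 scale. Krt10, the type I chain, had a signal of 34069 on the array labelled KO and 35148 on the array labelled CON. Its log2 difference was 0.07 after quantile normalization and 0.10 in the authors' normalized values (34643 against 32223), but -0.04 between the signals as measured and -0.02 with scaling to the median, so the direction for Krt10 depended on the scaling. Krt1, its type II partner, had 9066 on the array labelled KO and 8331.5 on the array labelled CON. The log2 difference of Krt1 was 0.16, and lay between 0.12 and 0.16 in all 6 ways of processing.

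Krt77 had a signal of 8085 on the array labelled KO, against 9197 on the array labelled CON, with a log2 difference of -0.16. Krt77 and Krt1 are neighbours on chromosome 15 and traded places on the intensity scale. Krt1 was at rank 275 and Krt77 at 322 on the array labelled KO, whereas Krt1 was at 323 and Krt77 at 274 on the array labelled CON. Among the 800 probes that follow the 200 brightest, 135, with Krt1 itself included, had a difference as high as or higher than that of Krt1. A difference as low as or lower than that of Krt77 was found for 139, with Krt77 itself included. Both keratins thus lay well inside the spread of probes of similar signal.

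Krt2 was close to background. Its signal was 165.2 on the array labelled KO and 186.9 on the array labelled CON, where the lowest signals judged detected were 159.2 and 163.5. The log2 difference was -0.51 after background correction, -0.21 in the authors' normalized values and -0.15 without background correction. The size of the Krt2 difference thus depended on how the background was treated, while its sign was the same in all 6 ways of processing.

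**Figure D2:**
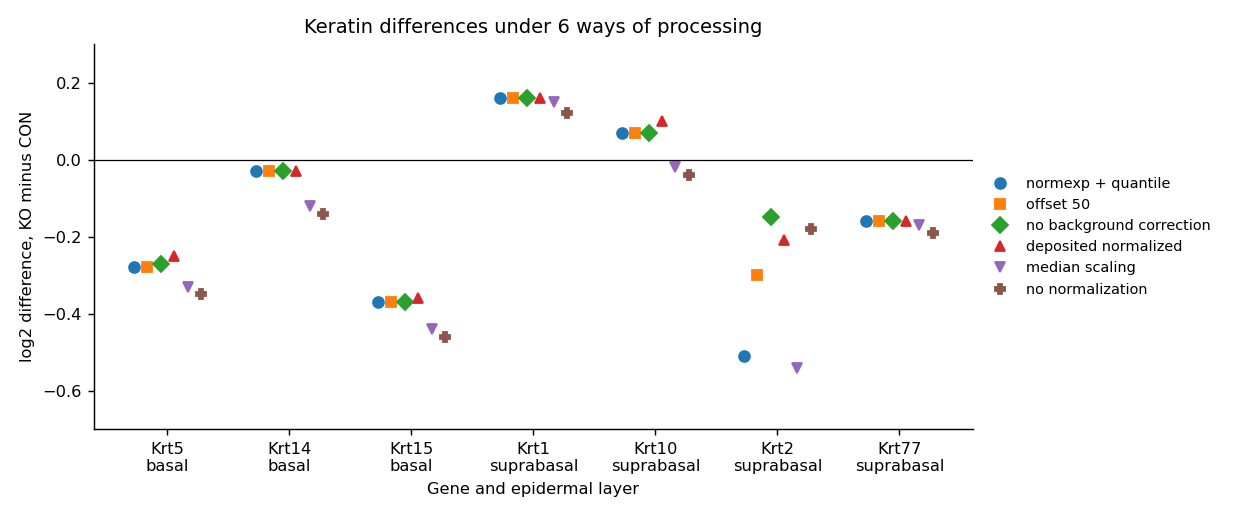
The log2 difference (KO minus CON) of each keratin under 6 ways of processing, 1 symbol per way. Krt15, Krt5, Krt14, Krt77 and Krt2 are below 0 in all 6, Krt1 is above 0 in all 6, and Krt10 changes sign.

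Counted against a log2 difference of 0.32, 2 of the 7 keratins (Krt15 and Krt2) were lower on the array labelled KO and 0 were higher. Over all 9536 detected genes, 13.0% were lower and 14.0% higher by at least this much, so small differences of this size were frequent. Between the signals as measured, 709 genes were lower and 394 higher by this much, so the balance of directions depended on the processing. Differences of this size were less frequent among bright probes. Of the 200 brightest probes, 3.00% were lower and 3.00% higher by at least 0.32, or 6 probes each. As measured, 10 were lower and 6 higher, and in the authors' normalized values 3 were lower and 6 higher. Of the 7 keratins described here, 4 had probes there (Krt10, Krt14, Krt15 and Krt5). After background correction and quantile normalization, only Krt15 of these 4 reached a difference of 0.32. Among the other keratins there, Krt79 reached it as well, on the higher side (0.45). In the authors' normalized values 1 of the 7, Krt15, reached it. Krt5 reached it as well between the signals as measured (-0.35) and with median scaling (-0.33), where 2 and 3 of the 7 were lower by this much. The median difference was -0.28 over the 3 basal and -0.04 over the 4 suprabasal keratins, beside -0.01 for the 8392 genes that both arrays detected.

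The bright keratins were then placed on the intensity scale, since a probe near the top has little room left to register more RNA. Signals of different probes also depend on how well each probe binds, so these positions do not rank the transcripts against each other. Krt14 reached 79.8% of the highest signal on the array labelled KO and 86.6% of that on the array labelled CON, where the highest signals were 40891 and 41511, both of the ribosomal protein gene Rplp1. Krt10 reached 83.3% on the array labelled KO and 84.7% on the array labelled CON. The highest measured signal was 1.16-fold to 1.20-fold that of these probes, apart from Krt14 on the array labelled KO, where the gap was the widest. Krt15 stood at 41.5% of the highest signal on the array labelled KO and 56.4% on the array labelled CON. Krt5 stood at 28.1% and 35.3% of the highest signal on the arrays labelled KO and CON, Krt1 at 22.2% and 20.1%, and Krt77 at 19.8% and 22.2%.

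The ranked signals flattened towards the top on both arrays. From rank 512 to rank 4096 the signal fell by 0.99 on the log2 scale for each doubling of the rank on the array labelled KO, and by 0.97 on the array labelled CON. From rank 8 to rank 64 it fell by 0.23 per doubling on either array, and over the first 8 ranks by 0.09 on the array labelled KO and 0.06 on the array labelled CON. On the array labelled KO, 12 probes had at least 80% of the highest signal, against 20 on the array labelled CON. Krt10 and Krt14, at ranks 8 and 13 on the array labelled KO and 15 and 11 on the array labelled CON, lay in or next to the flattest stretch. Krt15 was at rank 60 on the array labelled CON, in the same stretch as Krt10 and Krt14 there, and at rank 101 on the array labelled KO, beyond it. From rank 64 to rank 512, where Krt5, Krt1 and Krt77 lay on both arrays, the signal fell by 0.63 per doubling on the array labelled KO and by 0.66 on the array labelled CON. The files hold no saturation mark for a probe and the upper limit of the scanner is not given in the sources used here, so saturation of Krt14 and Krt10 was not tested.

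**Figure D3:**
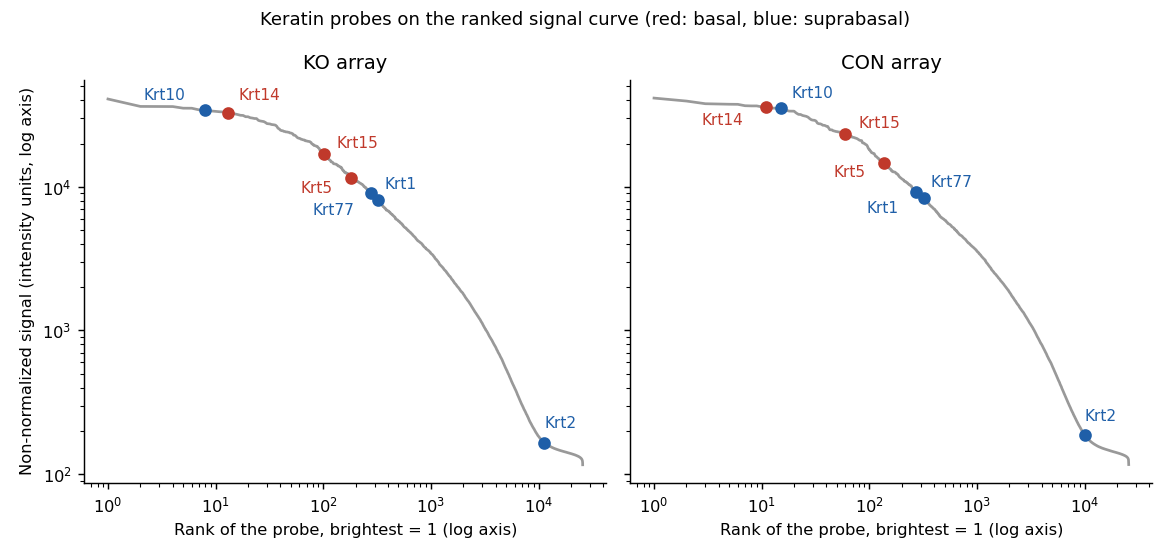
Non-normalized signal of all probes against their rank (both axes logarithmic) on the array labelled KO (left) and the array labelled CON (right), with the 3 basal keratins in red and the 4 suprabasal keratins in blue. Krt10 and Krt14 sit near the flattened upper end of the curve, and Krt2 sits near the lower end.

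Differences between the arrays were narrowest among the brightest probes. The SD of the log2 differences was 0.15 over the 200 brightest probes, 0.22 over the next 800, 0.28 over the next 3000 and 0.41 over the 7230 dimmer probes detected on both arrays. For the dimmest class the SD was 0.22 in the authors' normalized values and without background correction, below the 0.24 and 0.25 of the class above it, so the widening at low signal depended on that correction. None of the 200 brightest probes differed by 2-fold. Krt15 (-0.37) and Krt5 (-0.28) were outside 1 SD of the brightest class, Krt14 (-0.03) and Krt10 (0.07) were inside it, and Krt1 (0.16) and Krt77 (-0.16) were inside the SD of their own class. This SD is taken over probes and is not a spread between replicates.

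Genes with the brightest probes give the surroundings of Krt10 and Krt14 on the scale. They included the ribosomal genes Rplp1, Rps9, Rpl41 and Rps19, the translation factor Eef1a1, Gm9294, Itm2b, the suprabasal secreted protein gene Dmkn, and Krt10 itself. The differences of these named genes ran between -0.13 (Rps19) and 0.12 (Rps9). Between the signals as measured, the 200 brightest probes had a median difference of -0.08 and 77.0% of them were lower on the array labelled KO, and background correction with quantile normalization moved that median to -0.01. These steps raised the differences of Krt14 and Krt10 by 0.11 each, of Krt15 by 0.09, of Krt5 by 0.07, of Krt1 by 0.04 and of Krt77 by 0.03. As measured, Krt14 differed by -0.14 on the log2 scale, Krt15 was 1.38-fold lower and Krt5 1.28-fold lower on the array labelled KO.

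**Figure D4:**
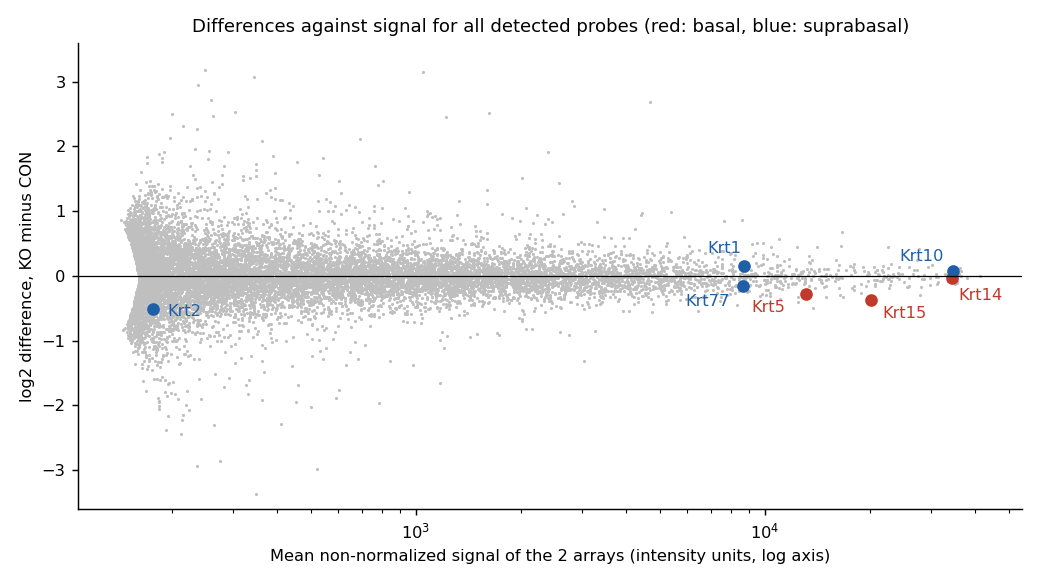
The log2 difference (KO minus CON) against the mean non-normalized signal (log axis) for every detected probe (grey), with basal keratins in red and suprabasal keratins in blue. The grey cloud narrows towards high signal, Krt15 and Krt5 lie towards its lower edge, and Krt14 and Krt10 lie near 0 at the far right.

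Genes of the same layers were set beside the keratins. Of 15 detected basal keratinocyte and hemidesmosome genes, 0 reached 2-fold and the median difference was -0.06. The integrin chain gene Itga6 was 1.47-fold higher on the array labelled KO (324.2 against 269.4) and the surface glycoprotein gene Bcam 1.45-fold lower (492.5 against 688.3). Lamb3, a laminin chain that anchors basal cells, had a log2 difference of -0.32 (5917 against 7561), and the hyaluronan receptor gene Cd44 was 1.20-fold higher. Of 16 detected suprabasal genes, 1 was at least 2-fold higher, Tgm3 (2.02-fold, 276.0 against 205.1), a protein-crosslinking enzyme, and 0 were 2-fold lower, with a median of -0.03. Over all detected genes, 1.28% were at least 2-fold higher and 1.11% at least 2-fold lower. The fold of Tgm3 was 1.42 in the authors' normalized values. Mt4, a metallothionein of stratified epithelia, was 1.74-fold lower, the transcription factor Grhl3 1.51-fold higher, and Skint3, of a family of keratinocyte surface proteins, 1.39-fold higher. Later in differentiation, 13 detected granular and cornified genes had a median of 0.24. Of these, 1 was at least 2-fold higher (Hrnr, a filaggrin relative, 3757 against 1909) and 0 were at least 2-fold lower. In this list the repetin gene Rptn was 1.84-fold higher, the envelope crosslinker Tgm1 1.61-fold and the protease gene Casp14 1.36-fold.

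No detected gene for a protein that binds keratin filaments, folds or degrades keratins, or acts on keratin genes reached 2-fold in the lists used. Of 11 detected genes for filament-binding and organising proteins, 0 reached 2-fold and the median was 0.02. The plakoglobin gene Jup was 1.52-fold higher (424.6 against 335.6), the keratin-binding protein gene Tchp 1.43-fold lower (281.1 against 361.4) and the plakophilin gene Pkp3 1.21-fold lower. Pkp2 was not well above background on the array labelled KO (157.2 against 168.6). Of 10 detected chaperones and turnover genes, 0 reached 2-fold, the median was 0.08 and the largest difference was 1.27-fold higher for Trex1. In the same list, the co-chaperone gene Dnajb6 was 1.21-fold higher, the 14-3-3 sigma gene Sfn 1.17-fold lower, and the chaperone gene Dnajb1 had a log2 difference of 0.14. Of 23 detected transcription factors reported to act on epidermal keratin genes, 0 reached 2-fold and the median was -0.01. Tfap2b was 1.98-fold lower (811.2 against 1535), and Pou2f3 and Klf4, which act in suprabasal differentiation, were 1.46-fold and 1.37-fold higher. In the authors' normalized values Jup, Trex1, Pou2f3 and Klf4 were 1.29-fold, 1.17-fold, 1.24-fold and 1.35-fold higher. Tchp and Tfap2b were 1.23-fold and 1.75-fold lower there.

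Several other keratins, mostly of hair and near background, differed by 2-fold or more after background correction, which none of the 7 did. Of 14 detected type I keratins outside the 7, 8 were detected on both arrays. The others, such as Krt26, were detected only on the array labelled CON, so they could count only as lower or level. Of the 14, 4 were at least 2-fold lower on the array labelled KO, against 1.11% of all detected genes. At least 2-fold higher were 0, and the median was -0.46. The largest were the hair keratin Krt33a (3.98-fold lower, 161.1 against 277.8) and the inner root sheath keratin Krt27 (3.29-fold lower, 195.3 against 369.2), followed by the hair keratin Krt32 (2.35-fold lower) and the inner root sheath keratin Krt26 (151.7 against 200.1, not well above background on the array labelled KO). Of 8 detected type II keratins, 7 of them on both arrays, 2 were at least 2-fold lower (Krt71 and Krt73, of the inner root sheath). In addition, 1 was at least 2-fold higher (the simple-epithelium keratin Krt7, 423.3 against 181.6), and the median was -0.12. Krt79, of the upper follicle, was 1.37-fold higher at a brightness like that of the members (25313 against 19763). In the authors' normalized values, which keep the background, 0 of the 14 type I keratins were 2-fold lower, with Krt33a and Krt27 at 1.87-fold, Krt32 at 1.76-fold and Krt26 at 1.45-fold. Of the 8 type II keratins, 1 was 2-fold lower there (Krt71, 2.64-fold, against 7.22-fold after background correction) and 1 higher (Krt7, a log2 difference of 1.32), while Krt73 was 1.76-fold lower. Along the chromosomes, Krt5 lies next to Krt71, and Krt15 lies 3 places from Krt14, with Krt19 and Krt9, not detected here, between them.

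**Figure D5:**
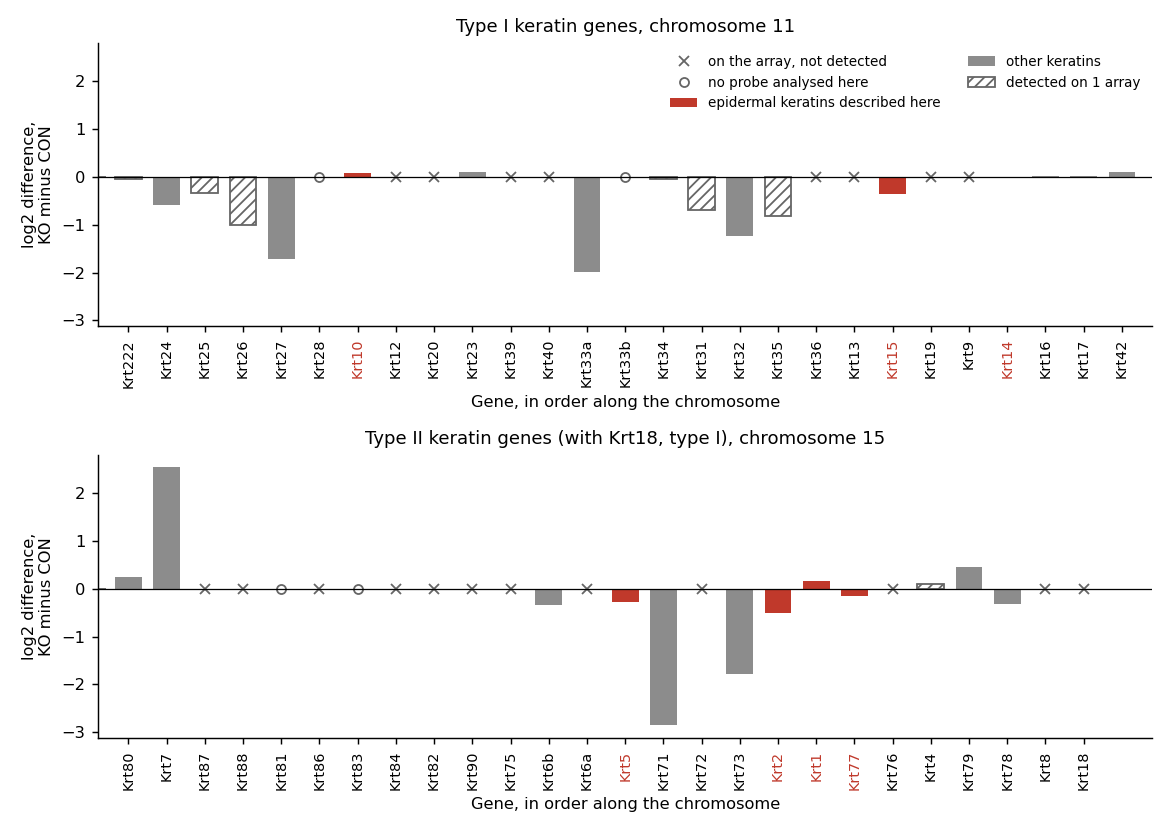
The log2 difference (KO minus CON) of keratin genes in their order on chromosome 11 (top) and chromosome 15 (bottom), with the 7 epidermal keratins in red, other keratins in grey, genes detected on 1 array hatched, crosses for probes not detected and open circles for genes without a probe analysed here. Krt71 (-2.85), Krt33a (-1.99) and Krt27 (-1.72) fall far below the red bars, which stay between -0.51 and 0.16.

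Markers of the bulge were mostly lower on the array labelled KO, as was Krt15, which bulge cells also express. All 6 bulge markers were detected on at least 1 array, 4 of them on both. Lgr5 and Lhx2 were detected only on the array labelled CON, so they could count only as lower or level. Of the 6, 3 were at least 2-fold lower on the array labelled KO and 0 at least 2-fold higher. Over all detected genes, 1.11% were lower and 1.28% higher by this much. The 3 lower markers were Tbx1 (3.87-fold, 255.8 against 652.6), Cd34 (3.10-fold, 160.4 against 243.5) and Lgr5 (154.2 against 221.7, not well above background on the array labelled KO). In the authors' normalized values 1 of the 3 stayed at 2-fold (Tbx1, 2.34-fold), with Cd34 at 1.64-fold and Lgr5 at 1.58-fold. The median of the list was -1.07, and -0.53 in the authors' values. The summed signal of the bulge list, background included, was 1960 on the array labelled KO and 2746 on the array labelled CON. Their part in the difference of Krt15 was not tested. Markers of hair shaft and inner root sheath summed to 4864 on the array labelled KO, against 5891 on the array labelled CON, background included. The keratins among them had signals of 135.3 to 195.3 on the array labelled KO and 172.8 to 390.3 on the array labelled CON. Most of each sum was therefore Gata3, which is also in the list of transcription factors. Of 6 detected members, 5 of them on both arrays, 4 were 2-fold lower, and the median was -1.75. In the authors' normalized values 1 of the 6, Krt71, was 2-fold lower and the median was -0.86.

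The composition of the pools was read from marker genes. All 7 basal and 6 of 7 suprabasal keratinocyte markers were detected on both arrays, Dsg1a being the exception. The 7 keratins described here are themselves among these markers, including Krt2, which was close to background. The sums given here are of non-normalized signals and keep the background. Beside the counts below, 1.28% of all 9536 detected genes were at least 2-fold higher and 1.11% at least 2-fold lower. In the authors' normalized values these were 29 and 19 genes. Melanocyte markers summed to 991 on the array labelled KO and 1593 on the array labelled CON. Of 5 detected markers, 1 (Dct) was detected on both arrays. Ednrb, Mlana and Pmel were detected only on the array labelled CON, so they could count only as lower or level. Of the 5, 2 were 2-fold lower (1, Dct, in the authors' normalized values). Langerhans cell markers summed to 6975 on the array labelled KO and 4162 on the array labelled CON, with 2 of 4 detected markers 2-fold higher (0 in the authors' values). For dermal fibroblasts 4 of 8 markers were detected, 2 of them on both arrays, and 1, Dcn, was 2-fold lower (0 in the authors' values). Col1a2, Col3a1, Lum and Pdgfra were not above background. For endothelium 3 of 7 were detected, 0 of them on both arrays. T cell, endothelial, skeletal muscle, adipocyte, erythroid and Merkel cell lists had 1 to 5 detected members and 0 at 2-fold. Their part in the keratin differences was not tested. The brighter Xist probe had 1769.6 on the array labelled KO and 896.7 on the array labelled CON, and the brightest Ddx3y probe 210.3 and 828.5, so the pools differed in sex-linked RNA.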

How the data were processed

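Both arrays carry the same chip number with different positions, per the file headers. The deposited non-normalized values are average bead intensities on a linear scale, exported with GenomeStudio 2011.1 per the submitters' processing notes. The authors also deposited normalized intensities with a shared distribution, and the value table holds the same numbers. How they were normalized is not stated in the labels or headers. The deposited detection p-values did not follow the rows (Spearman's rho with the signal -0.0073 on the array labelled KO and -0.0053 on the array labelled CON). They were therefore reassigned by signal rank, and p under 0.05 counted as detected (12147 probes on the array labelled KO, 11994 on the array labelled CON).

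Non-normalized intensities were corrected with limma 3.58.1 (R 4.3.3; normexp through detection p-values, offset 16), put on the log2 scale and quantile normalized, with figures drawn in matplotlib 3.10.9. The steps were tested on simulated data. The alternatives were the authors' normalized values, no background correction, offset 50, median scaling, and the signals as measured, with neither correction nor normalization. Each gene was represented by its brightest probe. A gene detected on 1 array entered the counts with its background-corrected value there over the other array's own value or lowest detected signal, whichever was higher. Such genes are named with their signals and no fold from that correction, since the fold depends on it. Symbols were updated through the RefSeq table of GRCm38.p6, where 25376 of 25697 probes matched. The members and 8 gene lists were chosen with earlier results of these data known. The text names all members, the 4 detected members of each list with the largest differences, the 10 brightest genes (not all reported here) and Vdr, and says where others were picked. With 1 array per group, differences carry no p-value.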

Additional observations from a re-analysis of the deposited data

How the results depend on the processing

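Among the members, Krt10 alone changed sign between the 6 ways of processing, and the count of members at 2-fold was 0 in all of them. No member with a bright probe moved by more than the SD of the log2 differences of probes of similar signal. Krt2 moved from -0.51 as reported to -0.15 without background correction. That was within the SD of its class as reported (0.41) but beyond the SD without the correction (0.22). Since each keratin has 1 probe, the choice of probe could not alter a member. The counts over all detected genes depended on the background correction. At 2-fold they were 122 higher and 106 lower as reported, 29 and 19 in the authors' normalized values, 28 and 20 without background correction, 69 and 54 with an offset of 50, and 24 and 23 between the signals as measured. The last drops both background correction and normalization, and without background correction alone the counts were already 28 and 20. At a log2 difference of 0.32 they were 1334 higher and 1241 lower as reported, 678 and 567 in the authors' normalized values, 583 and 453 without background correction, 394 and 709 between the signals as measured, and 2091 and 1945 with no filter on detection. Median scaling gave 1468 higher and 1692 lower at 0.32. Background correction widens differences of dim probes by its construction. The SD of the brightest probes was 0.13 over 100 and 0.18 over 500, against 0.15 over 200. No replicate could be left out, since each group has 1 array, and the number of arrays limits the precision of every value.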

Other observations

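Some genes had both a probe among the 200 brightest and a dimmer one down to rank 4000, and their probes were set side by side after the data had been seen. There were 32 such genes and 0 of them were among the 7 keratins. The median absolute log2 difference was 0.08 at the bright probe and 0.10 at the dimmer one, with SDs of 0.17 and 0.21, and the dimmer probe showed the wider difference in 19 of the 32 genes. Both probes went the same way in 18 of the 32. Between the signals as measured, the order of the medians was reversed, with 0.10 at the bright probe and 0.09 at the dimmer one. There the SDs were again 0.17 and 0.21, the dimmer probe differed more in 18 genes, and both probes went the same way in 21.

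The detection p-values as filed would have left bright keratins undetected. Krt77, with a signal of 8085 on the array labelled KO and 9197 on the array labelled CON, is listed there with detection values of 0.555 and 0.432, where under 0.05 counts as detected. Krt2, with 165.2 and 186.9, is listed with 0 on both arrays.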
